A study of Mus musculus with 12 samples.

Results

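The presynaptic vesicle and release machinery was followed here as 38 named genes, taken by symbol from a table of 28842 genes measured by RNA sequencing in mouse prefrontal cortex. They comprise 7 synaptotagmins, 8 SNARE proteins and proteins that handle them, 10 vesicle proteins and tethers, 9 active zone proteins and 4 endocytosis proteins. The rule is the list of symbols and uses no measured value, though the list was drawn up with earlier results of these data known. Both groups were male wild-type C57BL/6J mice, an inbred laboratory strain. The saline group (6 libraries) received saline in adolescence, from postnatal day 28 to 42, and the cocaine group (6 libraries) received 15 mg/kg cocaine over the same days. As adults, mice of both groups had a pre-test on day 75, training with 1 mg/kg cocaine on days 76 and 77, and a test of conditioned place preference on day 78, with tissue taken 30 to 60 min later. Every library thus came from an animal that had received cocaine as an adult, and the adolescent treatment is the one difference the labels give between the groups. Nothing in the labels ties a library to its own animal, and a p-value here therefore reads against the spread of these libraries, which may be technical.

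Neurons store transmitter in vesicles at the nerve terminal. Vesicles are tethered and primed at the active zone, and the SNARE proteins on vesicle and plasma membrane zip together to drive fusion when a synaptotagmin binds calcium. NSF and its adaptors then pull the spent SNARE complex apart, and dynamin, amphiphysin and synaptojanin return the membrane by endocytosis. The mRNAs are made in the cell body, so a slice of cortex reports the neurons whose bodies lie in it and not the terminals of axons that arrive from elsewhere. In tissue, fewer neurons and less mRNA per neuron cannot be told apart.

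Recovered depth was 16.7 to 19.9 M reads per library. Neuronal RNA was present: the neuronal nuclear protein gene Rbfox3 stood at 4005 to 4959 normalised read counts in saline and 3294 to 5334 in cocaine libraries. That gene does not tell cortex from other brain regions. All 8 markers of excitatory cortical neurons passed the expression filter, and so did 3 of 5 thalamus markers. The labels also name a mesenchymal stem cell line, and 4 of 6 mesenchymal markers (Prrx1, Twist2, Postn and Col3a1) were below the expression filter. The other 2 passed it. Acta2 averaged 347 normalised read counts in saline and 353 in cocaine libraries, and Fn1 averaged 533 and 510. Saline replicate 5 stood apart by choroid plexus RNA, with Ttr at 11208 normalised read counts against at most 13.2 in any other library. That library also had the highest sum over the 5 thalamus markers, 1687, where cocaine libraries reached at most 1414. Among these markers Prkcd reached 767 in the saline group and 241 in the cocaine group. Summed myelin gene counts, over 12 markers of oligodendrocytes, ranged from 35114 to 249319 in saline and from 51804 to 205471 in cocaine libraries. The log2 difference, cocaine minus saline, was negative for all 12 (median -0.19) and positive for all 4 red blood cell genes (median 0.50), and 0 genes of either list passed the test. At an unadjusted limma p under 0.05 there were 0 of the 12 and 1 of the 4, Hbb-bs. The labels also carry a time tag of day 0 or day 5, each on 3 libraries of a group.

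The release machinery was abundant in this tissue. Levels between genes are compared per length, as FPKM, computed here from the deposited value, the gene length and the library total. By mean FPKM, 15 members exceeded 100 and 7 were under 10, and 4 stood among the 100 highest of all genes. The members together took 1.87 to 2.32 percent of reads in saline libraries and 2.04 to 2.23 percent in cocaine libraries, which lay inside the saline range. Saline replicate 5 gave the lowest share and saline replicate 3 the highest. Only Syn3, a minor synapsin, fell below the filter of a mean FPKM of 1, leaving 37 members in the test.

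Each role had 1 or a few dominant genes. Synaptotagmins include calcium sensors and members, such as Syt4 and Syt11, that bind calcium weakly or not at all. Among them Syt1, the fast sensor of evoked release, led at 221 ± 20.5 FPKM in the saline group and 223 ± 14.3 in the cocaine group (mean ± SD, n = 6 libraries each). Its close relative Syt2, the fast sensor of many hindbrain and some inhibitory synapses, stood at 2.36 ± 0.773 and 2.03 ± 0.451. Syt11 (mean 166 FPKM) and Syt5 (123) came next, followed by Syt4 (59.1), Syt7 (49.7) and Syt3 (17.2). Among SNARE genes Snap25, the plasma membrane SNARE that gives 2 helices to the complex, was the highest of all 38 members at 366 ± 29.0 FPKM in saline and 383 ± 45.3 in cocaine libraries. The vesicle SNARE Vamp2 stood at 307 FPKM over all libraries and its paralog Vamp1 at 7.39. The complexins, which clamp and assist the assembled SNAREs, were at 220 (Cplx1) and 181 (Cplx2). Stx1a, the partner of Snap25 on the plasma membrane, was at 148. Nsf, the ATPase that separates used SNAREs, was at 107, and its adaptor Napb at 94.7.

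Vesicle proteins were led by Rab3a, the small GTPase that marks docked vesicles, at 325 ± 43.1 FPKM in saline and 329 ± 55.6 in cocaine libraries. Syn1 (264) and Syp (228), the vesicle's phosphoprotein anchor and its tetraspan membrane protein, followed. Sv2c and Syn3 were the lowest, at 2.13 and 0.725. The leading active zone genes were lower per length than the leading vesicle genes. Bsn, the giant scaffold bassoon, led at 36.8 ± 11.8 FPKM in saline and 34.6 ± 8.75 in cocaine libraries, and the priming factor Unc13a followed at 30.9. Rims1 (26.6), the scaffold that ties Rab3 to calcium channels, and Rims3 (20.7) came next, then Erc2 (17.3), Pclo (12.4) and Rims2 (9.96). Erc1 (2.37) and Unc13b (2.32) closed the group. For membrane retrieval Dnm1, the neuronal dynamin that cuts vesicles from the membrane, stood at 335 ± 18.5 and 336 ± 24.7 FPKM. Snap91, a clathrin adaptor, Amph and Synj1 were close together at 55.8, 54.1 and 52.1, and these 3 neighbours did not differ beyond their spread between libraries.

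**Figure D1:**
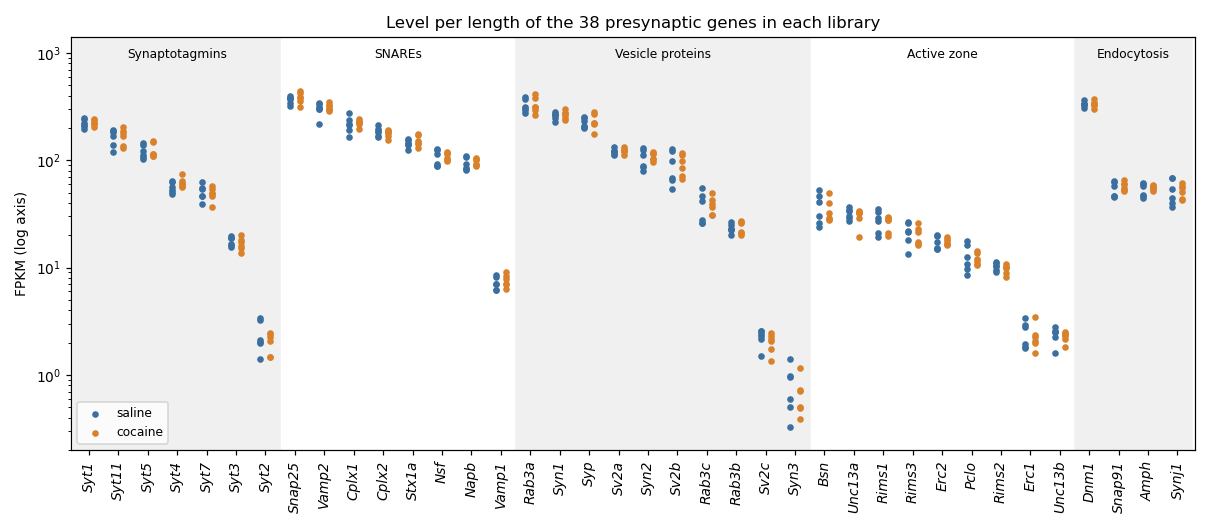
Level of each presynaptic gene in every library, in FPKM on a log axis, grouped by role; blue points are the 6 saline and orange points the 6 cocaine libraries. In each gene the points of both groups overlap, from Snap25 (mean 375 FPKM) at the top to Syn3 (0.725) at the bottom.

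Promoters are shown for 4 genes whose levels went different ways from library to library: the active zone scaffolds Bsn and Pclo and the vesicle proteins Syp and Rab3a. RefSeq promoter sequences on GRCm38.p6, from 250 bases before to 50 after each start, matched 31 of the 38 members. The 150 bases before the start are printed 5′ to 3′ on the gene's strand, and capitals mark the motif of nuclear respiratory factor 1 (NRF-1) where it occurs, searched as GCGC on both sides of any 2 bases. Bsn spans chr9:108190384-108190533 on the minus strand and Pclo chr5:14514768-14514917 on the plus strand. Syp spans chrX:7638430-7638579 and Rab3a chr8:70754553-70754702, both on the plus strand.
Bsn: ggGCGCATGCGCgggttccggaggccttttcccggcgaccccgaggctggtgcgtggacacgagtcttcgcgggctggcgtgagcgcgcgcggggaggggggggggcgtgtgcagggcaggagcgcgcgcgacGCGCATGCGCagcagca
Pclo: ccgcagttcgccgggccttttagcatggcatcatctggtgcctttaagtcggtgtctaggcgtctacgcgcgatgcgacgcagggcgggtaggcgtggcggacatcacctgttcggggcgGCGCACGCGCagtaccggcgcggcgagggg
Syp: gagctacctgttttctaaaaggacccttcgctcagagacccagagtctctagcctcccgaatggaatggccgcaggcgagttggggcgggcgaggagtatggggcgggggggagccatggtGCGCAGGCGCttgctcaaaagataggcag
Rab3a: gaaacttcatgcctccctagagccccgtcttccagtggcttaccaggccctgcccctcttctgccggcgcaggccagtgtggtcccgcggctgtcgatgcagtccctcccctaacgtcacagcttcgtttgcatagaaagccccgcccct

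Bsn held 2 matches, the first base of each 148 and 17 bases before the start, Pclo 1 match at 30 bases and Syp 1 at 29 bases. The printed stretch of Rab3a held 0, which says only that these letters are not in this window. Both strands were searched; the motif reads the same on each. In the 300-base windows it occurred in 7 of 31 members (22.6 percent: Bsn, Nsf, Pclo, Snap91, Syp, Syt2 and Syt3) and in 6.23 percent of all 32851 promoters. The GC box GGGCGG, the core bound by Sp1, occurred in 23 members (74.2 percent) against 35.7 percent of all promoters. The cyclic AMP response element TGACGTCA occurred in 1 member, Syn1 (3.23 percent), against 1.79 percent. Matches of different motifs were counted also where they overlap, and a match is a description of letters, not of binding. The set of all promoters was not matched to the members in GC content or expression. For Cplx2 the window, chr13:54302306-54302605, lay away from the start of the annotated gene at 54371349. So did those of Syt11, chr3:88772550-88772849 (start at 88775164), and Rab3c, chr13:110280157-110280456 (start at 110280996). Both are counted among the GC box members. The windows of Rims1, Snap91 and Syt2 lay close to the annotated start without holding it.

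No member passed the test between adolescent cocaine and saline. At a limma adjusted p under 0.05 (Benjamini-Hochberg over 13016 genes), 0 of 37 members and 0 of all genes tested were called (0 percent). At an unadjusted p under 0.05 the members also gave 0, where all genes tested gave 149 (1.14 percent). The groups overlapped in each member, while 10 genes in the whole table (0.0768 percent) had groups that did not overlap. Count tests on the recovered reads called 0 members too: edgeR called 0 of 16057 genes (0 percent; 253 at an unadjusted p under 0.05) and DESeq2 called 3 of 28827 (0.0104 percent; 428 unadjusted). By the authors' deposited table, 3 of all 28842 genes and no member had an adjusted p under 0.05, and the smallest member p was 0.161.

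Differences are cocaine minus saline in log2(value + 1), a scale on which changes of low genes come out too small, with the standard error of the limma fit. Over the 37 members the median was 0.02, against 0.01 over all genes tested. They ran from -0.18 for Syt2 to 0.16 for Syt4. Higher in cocaine were 24 of 37, against 53.7 percent of all genes tested. That count was 13 without saline replicate 5, 15 without saline replicate 6 and 30 without saline replicate 4, so the balance of signs followed single libraries. With the myelin score as a covariate 22 were higher and 15 lower (median 0.01), and with the time tag as a covariate 24 and 13. What the data bound is the size: the 95 percent interval lay within a 1.5-fold change either way for 35 members and within 1.25-fold for 19. Standard errors ran from 0.08 to 0.24 with a median of 0.12, and the median over all genes tested was 0.13.

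**Figure D2:**
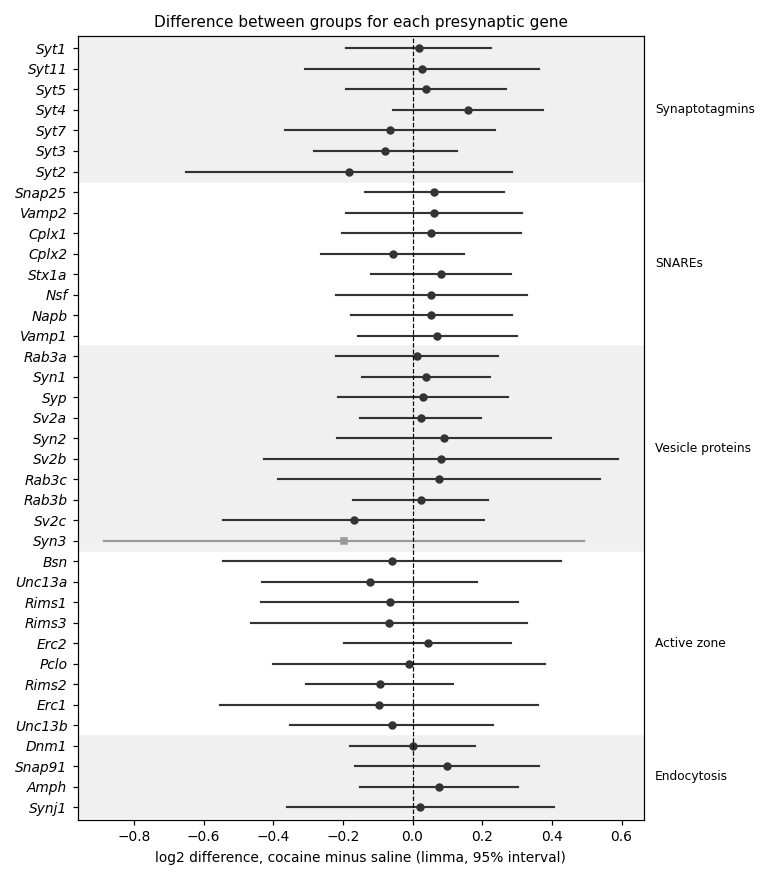
Log2 difference of each presynaptic gene, cocaine minus saline, with the 95 percent interval of the limma fit on 6 against 6 libraries; Syn3 (grey square) is from the fit without the expression filter. Each interval crosses 0, and the points run from -0.20 for Syn3 to 0.16 for Syt4.

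Among the 7 synaptotagmins 4 were higher and 3 lower in cocaine, with a median of 0.02 and none past the test. Syt4, a synaptotagmin with little calcium binding that sits on dense-core and post-Golgi vesicles, had the smallest p of all members. Its normalised read count ran from 3274 (median 3683) to 4546 in saline and from 3882 (median 4126) to 5052 in cocaine libraries. Cocaine replicate 3 was the highest of all and saline replicates 1, 5 and 6 the lowest, but saline replicates 3 and 4 lay above 5 of the cocaine libraries. The fold of means was 1.11 (log2 0.16 ± 0.10 SE, interval -0.06 to 0.37, limma p = 0.135, exact permutation p = 0.154). Without saline replicate 4 its p was 0.0533. Some of its exon sequence, 14.5 percent, is shared with another annotated gene, Gm26658, and the strand setting of the counting is not given in the sources used here.

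Syt2 had the lowest difference. Its counts ran from 186 (median 282) to 454 in saline and from 195 (median 297) to 336 in cocaine libraries. Saline replicates 1 and 3 were high and saline replicate 5 low, and the cocaine libraries fell inside that range. The difference was -0.18 ± 0.22 SE (limma p = 0.417, exact permutation p = 0.394). Syt1 (ENSMUSG00000035864, chromosome 10, 108497650 to 109010982, minus strand, GRCm38) ran from 27644 (median 31633) to 38073 in saline and from 29308 (median 32568) to 35786 in cocaine libraries. The cocaine values lay within the saline range, and the interval of the difference, -0.19 to 0.22, held the major sensor to within 1.25-fold. The other 4 synaptotagmins lay between -0.08 (Syt3) and 0.04 (Syt5). The split of signs was 2 higher and 5 lower without saline replicate 5, without saline replicate 6 or without cocaine replicate 6.

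Of the 8 SNARE genes and their handlers, 7 were higher in cocaine and 1, Cplx2, was lower (median 0.06), none past the test. Stx1a had the smallest p of the group. It ran from 5646 (median 6923) to 7398 in saline and from 5984 (median 7097) to 8101 in cocaine libraries. Cocaine replicates 1 and 5 were the highest libraries, and the rest of both groups intermixed. The difference was 0.08 ± 0.09 SE (limma p = 0.395, exact permutation p = 0.357). Snap25 (ENSMUSG00000027273, chromosome 2, 136713453 to 136782428, plus strand) ran from 39855 (median 43806) to 46849 in saline and from 38931 (median 45755) to 52159 in cocaine libraries. Cocaine replicates 1 and 3 exceeded the saline range while cocaine replicate 2 was the lowest library of all 12. Its difference was 0.06 ± 0.09 SE (limma p = 0.515, exact permutation p = 0.381).

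Vamp1, the vesicle SNARE of the lower level, ran from 1090 (median 1247) to 1518 in saline and from 1162 (median 1313) to 1632 in cocaine libraries. Cocaine replicate 6 was the highest and saline replicate 5 the lowest, and the ranges overlapped over most of their length. The difference was 0.07 ± 0.11 SE (limma p = 0.515, exact permutation p = 0.53). The other 5 genes of the group lay between -0.06 (Cplx2) and 0.06 (Vamp2). Their tilt to higher values rested in part on saline replicate 5: without it 4 of the 8 were higher and 4 lower, with a median of 0.00. Without saline replicate 6 the split was 6 and 2.

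Of the 9 vesicle proteins tested, 8 were higher and Sv2c was lower in cocaine (median 0.03), none past the test. Sv2c, a vesicle glycoprotein best known from basal ganglia, ran from 245 (median 399.7) to 454 in saline and from 224 (median 358) to 436 in cocaine libraries. Saline replicate 6 and cocaine replicate 5 were the low libraries of their groups, and the rest overlapped. The difference was -0.17 ± 0.17 SE (limma p = 0.347, exact permutation p = 0.353). Syn2, a synapsin that anchors vesicles of the reserve pool, ran from 9682 (median 12309) to 16704 in saline and from 11735 (median 13443) to 15309 in cocaine libraries. The cocaine values lay inside the saline range, which saline replicates 3 and 4 extended upwards and saline replicate 5 downwards. The difference was 0.09 ± 0.14 SE (limma p = 0.539, exact permutation p = 0.697).

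Rab3a (ENSMUSG00000031840, chromosome 8, 70754679 to 70758677, plus strand) ran from 11236 (median 12182) to 14532 in saline and from 10757 (median 12239) to 16148 in cocaine libraries. Saline replicates 5 and 6 and cocaine replicates 1 and 5 were the high libraries. The difference was 0.01 ± 0.11 SE (limma p = 0.906, exact permutation p = 0.838). Syn3, below the filter, ran from 68.8 (median 169) to 312 in saline and from 83.5 (median 128) to 259 in cocaine libraries. Its libraries differed within groups by 4.54 times in saline and 3.10 times in cocaine. With the filter dropped its difference was -0.20 ± 0.33 SE (limma p = 0.553, exact permutation p = 0.526), and 14.1 percent of its exon bases are shared with Timp3 on the opposite strand. The split of 8 higher and 1 lower was 5 and 4 without any one of saline replicates 1, 5 or 6 or cocaine replicates 1, 2 or 5, and 7 and 2 without saline replicates 3 or 4 or cocaine replicate 3. With library weights it was 2 higher and 7 lower.

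The active zone was the group with the most lower values, 8 of 9, with a median of -0.07, again none past the test. Rims2, a paralog of the Rims1 scaffold, had the smallest p of the group. It ran from 1605 (median 1894) to 2125 in saline and from 1475 (median 1790) to 2069 in cocaine libraries. Cocaine replicates 1 and 5 were low, as was saline replicate 5, and cocaine replicate 2 stood near the top saline values. The difference was -0.09 ± 0.10 SE (limma p = 0.356, exact permutation p = 0.351). Unc13a, the priming factor Munc13-1, ran from 5930 (median 7057) to 8488 in saline and from 4202 (median 7138) to 7633 in cocaine libraries. Cocaine replicate 3 at 4202 was the lowest of all libraries, and the other 5 cocaine libraries lay inside the saline range. The difference was -0.12 ± 0.14 SE (limma p = 0.41, exact permutation p = 0.489) and 0.00 without cocaine replicate 3.

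Bsn (ENSMUSG00000032589, chromosome 9, 108096022 to 108190384, minus strand) ran from 6504 (median 10011) to 15276 in saline and from 7635 (median 8529) to 14521 in cocaine libraries. Saline replicates 3 and 4 and cocaine replicate 2 were high, saline replicates 5 and 6 low. The difference was -0.06 ± 0.23 SE (limma p = 0.797, exact permutation p = 0.734), the widest error among the 37 tested members but that of Sv2b. Unc13b, the paralog Munc13-2, ran from 626 (median 984) to 1163 in saline and from 718 (median 923) to 1025 in cocaine libraries, with cocaine values inside the saline range. Its difference was -0.06 ± 0.14 SE (limma p = 0.671, exact permutation p = 0.587).

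Erc2, a scaffold of the CAST family, was the 1 active zone gene with a positive difference, at 0.04. The count of higher active zone genes changed with single libraries: it was 0 of 9 without saline replicate 5 or saline replicate 6, 2 without saline replicate 2 or cocaine replicate 1, 3 without cocaine replicate 5, 5 without saline replicate 3 or cocaine replicate 3, and 7 without saline replicate 4. The median ran from -0.17 without saline replicate 5 to 0.02 without saline replicate 3.

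All 4 endocytosis genes had differences of 0 or above (median 0.05), none past the test. Snap91 ran from 7202 (median 8356) to 10666 in saline and from 8237 (median 9154) to 10403 in cocaine libraries. Saline libraries split into a low set (replicates 1, 5 and 6) and a high set (2, 3 and 4), and the cocaine libraries lay inside that range. The difference was 0.10 ± 0.12 SE (limma p = 0.432, exact permutation p = 0.522). Amph, which bends membrane at the neck of the forming vesicle, showed the same arrangement, from 3478 (median 4155) to 5035 in saline and from 4081 (median 4363) to 4728 in cocaine libraries. Its difference was 0.08 ± 0.11 SE (limma p = 0.484, exact permutation p = 0.582).

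Dnm1 (ENSMUSG00000026825, chromosome 2, 32308471 to 32353338, minus strand) ran from 27984 (median 30900) to 34322 in saline and from 27386 (median 31212) to 34384 in cocaine libraries. The ranges nearly coincided, and the difference was 0.00 ± 0.08 SE, with an interval of -0.18 to 0.18. Synj1, the phosphatase synaptojanin, ran from 5102 (median 7050) to 10112 in saline and from 6068 (median 7444) to 9099 in cocaine libraries. Saline replicates 3 and 4 were high and saline replicate 5 low. The difference was 0.02 ± 0.18 SE (limma p = 0.901, exact permutation p = 0.931). The 4 positive signs were 2 without any one of saline replicates 1, 5 or 6 or cocaine replicates 2 or 6, and 3 without cocaine replicates 1 or 5. With the myelin score as a covariate 2 were higher and 2 lower (median 0.02).

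Paralogs with related roles may in part replace each other, so the share of 1 gene in a sum of paralogs was compared between groups. Whether the genes of a family are interchangeable was not tested. The sum was the FPKM of the family members on the list. Shares in 10 families were compared by an exact permutation test, adjusted over the 10. Paralogs off the list were left out of the sums, such as Rims4 (mean 21.8 FPKM), Cplx3 (7.53) and Rab3d (2.69). None passed the test between groups: each adjusted p was 0.952 and the smallest unadjusted p was 0.229. That value belonged to Cplx1, which made up 53.8 ± 2.53 percent of Cplx1 and Cplx2 together in the saline group and 55.7 ± 2.31 percent in the cocaine group (mean ± SD, n = 6). Cocaine replicate 3, at 60.0 percent, was the highest of the 12 and saline replicate 5, at 49.5 percent, the lowest. Families differed much in how far 1 member dominated. Unc13a made up 93.1 ± 0.910 and 92.8 ± 0.875 percent of its pair with Unc13b. Rab3a made up 84.0 ± 3.99 and 83.8 ± 3.09 percent of the 3 Rab3 genes on the list. By contrast Vamp1 was 2.36 ± 0.360 and 2.38 ± 0.369 percent of Vamp1 and Vamp2 together. Syt2 was 1.06 ± 0.341 and 0.90 ± 0.188 percent of its sum with Syt1.

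Erc2 held most of its pair with Erc1, and the other families were more even. Bsn held 74.3 ± 1.24 percent against Pclo in saline and 73.6 ± 2.31 percent in cocaine libraries. Syn1 held 71.5 ± 3.54 and 70.9 ± 2.34 percent of the 3 synapsins. Rims1 held 46.2 ± 1.61 and 46.4 ± 3.13 percent of the 3 Rims genes on the list, without Rims4, and Erc1 held 12.4 ± 1.65 and 11.5 ± 2.37 percent against Erc2. In each of these families the group means lay closer together than 1 SD between libraries. Sv2a moved most from library to library, from 48.3 percent of the 3 Sv2 genes in saline replicate 4 to 66.5 percent in saline replicate 5, while its group means were 57.9 ± 7.63 and 57.1 ± 5.63 percent.

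**Figure D3:**
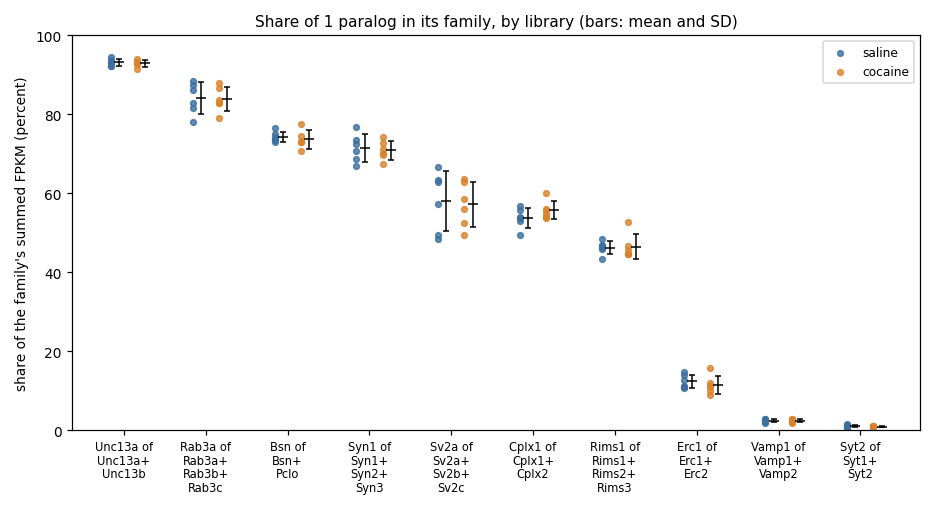
Share of 1 paralog in the summed FPKM of the listed members of its family, in percent, for 10 families; points are libraries (6 saline in blue, 6 cocaine in orange), and the bars beside them are mean and SD. Unc13a is above 91 percent and Vamp1 and Syt2 are under 3 percent in each library, and the groups overlap in each family.

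The larger variation among these genes lay within the groups. A first principal component was computed over the log2 values of the 12979 tested genes that are not members; it held 43.4 percent of their variance. Its sign is arbitrary and was set so that Bsn has a positive slope. Its score averaged 0.00 in both groups, with an SD of 1.24 in saline and 0.81 in cocaine libraries (exact permutation p = 0.996), so it did not separate them. In units of its SD, saline replicates 4 and 3 and cocaine replicate 2 scored highest, at 1.39, 1.15 and 1.14. Saline replicates 5 and 6 and cocaine replicate 1 scored lowest, at -1.69, -1.07 and -0.98. Of the 37 members, 31 had a positive slope on this score, against 48.8 percent of the other genes. The members were also longer, with a median of 7274 bases against 4113, and this comparison was not matched for length. Of the 37, 33 had slopes of the same sign in both groups. The exceptions were Vamp1, Syn1, Dnm1 and Stx1a, whose slopes were 0.04, 0.03, 0.03 and 0.02 over all libraries.

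The steepest member was Sv2b, a vesicle glycoprotein of excitatory neurons, at 0.43 log2 units per SD of the score. Its counts ran from 7710 in saline replicate 5 to 19501 in saline replicate 4, and from 9886 in cocaine replicate 1 to 17865 in cocaine replicate 2. Bsn (0.41), Rab3c (0.39), Erc1 (0.37) and Pclo (0.33) came next. All 9 active zone genes and all 4 endocytosis genes had positive slopes, with medians of 0.31 and 0.17. Going the other way were 6 members: Rab3a (-0.14), Syt5 (-0.13), Rab3b (-0.09), Snap25 (-0.06), Syt3 (-0.06) and Syp (-0.05). At the ends of the score Rab3a was thus high where Bsn was low. It was at 14085 in saline replicate 5 and 11236 in saline replicate 4, where Bsn was at 6504 and 15276. In cocaine libraries Rab3a was at 16148 in replicate 1 and 10757 in replicate 2, where Bsn was at 7965 and 14521. This did not hold in every library. In saline replicate 1 both were below their saline medians, Rab3a at 11917 and Bsn at 8356. Family shares followed: Rab3a was 77.9 percent of the listed Rab3 genes in saline replicate 4 and 88.3 percent in saline replicate 6.

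**Figure D4:**
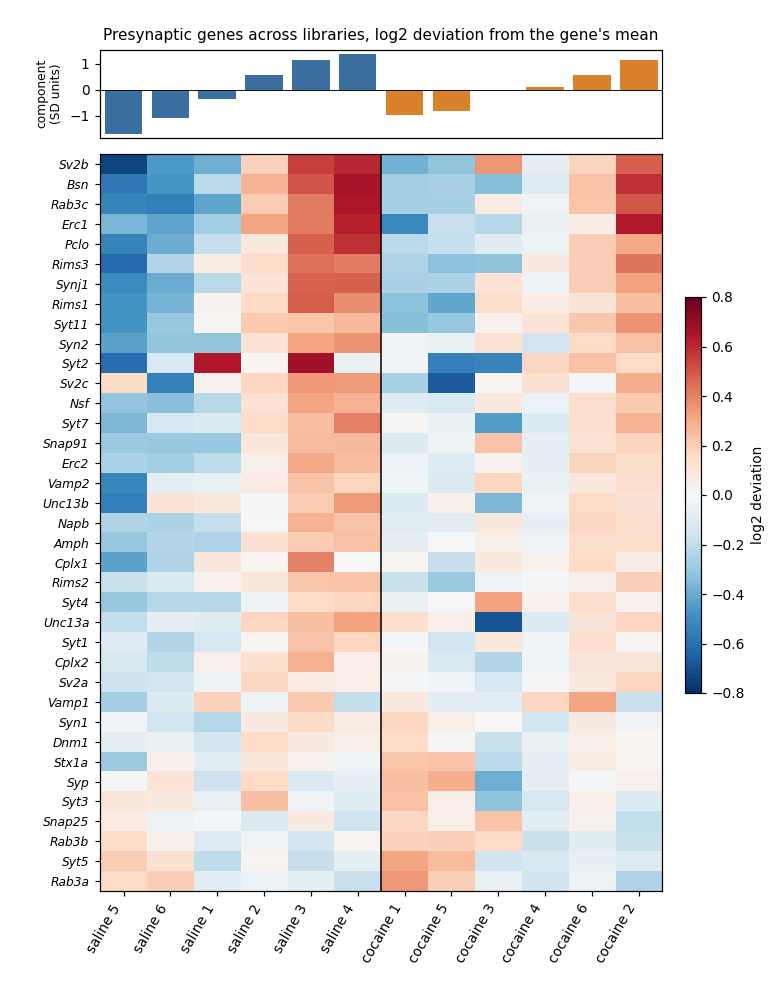
Log2 deviation of each presynaptic gene from its own mean in every library (colour scale from -0.8 to 0.8), with genes ordered by slope on the first component of all other tested genes and libraries ordered within group by its score, drawn above in SD units. The upper rows tend from blue to red within each group. The 6 lowest rows, Syp to Rab3a, have negative slopes in both groups. In saline libraries those slopes are small, from -0.02 for Syp to -0.10 for Rab3a. The rows just above, Vamp1, Syn1, Dnm1 and Stx1a, slope up in saline and down in cocaine libraries.

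Gene length moved with these slopes. The 31 members with positive slopes had a median length of 7972 bases and the 6 with negative slopes a median of 3321 bases. Across the 37 members the Spearman correlation of length and slope was 0.63, and across the 12979 other genes it was 0.52. Genes share the 12 libraries and are not independent, so these are descriptions with no test. Of the 7 members whose promoter window held the NRF-1 motif, Bsn, Pclo, Nsf, Snap91 and Syt2 had positive slopes and Syp and Syt3 negative ones. The myelin score, the mean log2 deviation of the 12 oligodendrocyte markers, did not follow the component in one way in both groups. In saline libraries it was lowest in replicates 4 and 3 (-1.51 and -1.01), which scored highest on the component, and highest in replicate 1 (1.23), whose component score was -0.36. In cocaine libraries replicates 1 and 5 were the lowest on both, with myelin scores of -1.04 and -0.54. The part of myelin and of the choroid RNA of saline replicate 5 in the slopes was not tested. The spread of the members as a whole was like that of other genes, with a median SD over the 12 libraries of 0.20 log2 units against 0.22.

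**Figure D5:**
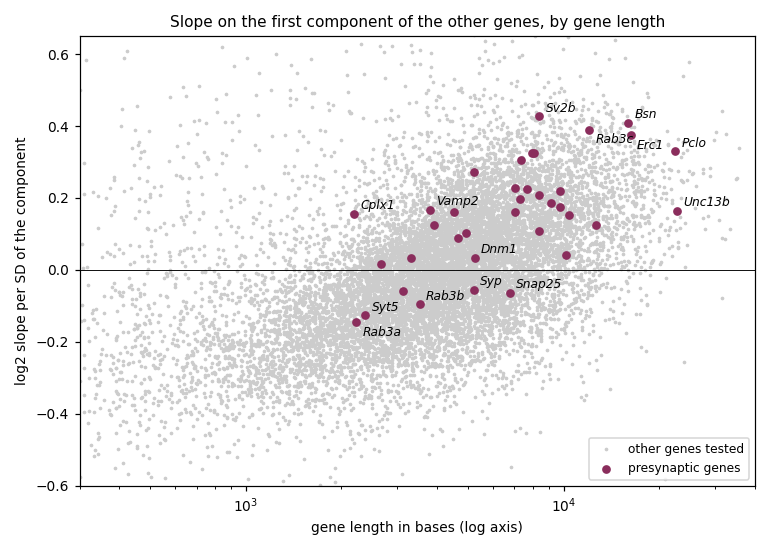
Slope of each tested gene on the first component, in log2 units per SD of the score, against gene length in bases on a log axis; presynaptic genes are the larger dark points and the other 12979 genes are grey. Longer genes have higher slopes among both, with Spearman correlations of 0.63 and 0.52.

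With that score as a covariate, a fit chosen after seeing the data, the median standard error of the members was 0.07, against 0.12 without it. Of the members, 1 reached an unadjusted limma p under 0.05, against 422 of all 13016 genes (3.24 percent). It was Syt4, at 0.16 with a limma adjusted p of 0.998 (0.0308 unadjusted). No member was called.

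Of 79 further genes from 5 lists, all passed the filter, 49 were higher and 30 lower in cocaine, with a median of 0.02, and 0 passed the test at an adjusted or unadjusted p of 0.05. Differences ran from -0.15 for Dnm2, the ubiquitous dynamin, to 0.20 for Slc17a6, a vesicular glutamate transporter that is minor in cortex. The cortical transporter Slc17a7 differed by 0.03. Among 16 further active zone genes 5 were higher and 11 lower, and among 15 further vesicle genes 13 were higher and 2 lower. SNARE partners gave 12 and 4, further synaptotagmins and related C2-domain proteins 7 and 4, and endocytosis genes 12 and 9. The gene nearest the threshold in each list was Syt6 at -0.10, Snap29 at 0.13, Slc17a6 at 0.20, Ppfia2 at 0.11 and Itsn2 at -0.15. These lists share their libraries with the members, so a like direction in them is not separate evidence.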

How the data were processed

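RNA from 12 prefrontal cortex samples was sequenced, 6 per treatment label. Trizol extraction and Illumina TruSeq preparation from 1 µg of RNA are stated per the labels' protocols. The submitters' processing notes name HISAT2 2.0.5 and a human build; the gene IDs are mouse, 28825 of 28842 being present in GENCODE M21 (GRCm38). As for the read counter and strand setting: not given in the sources used here.

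The authors deposited 1 table whose name says FPKM. Its deposited values per library are a signal that equals whole read counts over a size factor, with no division by length (whole within 0.01 read in each library); they are called normalised read counts. The authors' own log2 fold changes and p-values stand in the same deposited table, with a gene length column. In 16.7 to 19.9 M reads, a value of 0 allows up to about 3 reads, for counting error only.

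FPKM was calculated here from value, length and column sum. The test was limma 3.58.1 in R 4.3.3 (empirical Bayes, variance trend, two-sided) on log2(value + 1) in all 12 libraries, no covariate, over the 13016 genes whose mean FPKM was 1 or more, with Benjamini-Hochberg adjustment and a threshold of 0.05. It had been written for FPKM and was kept. Single values were also tested by a two-sided exact permutation test over the 924 arrangements of libraries, whose smallest p is 0.00216. It compared group means, for genes those of the normalised read count and not of its log2 value. Recovered whole reads went into edgeR 4.0.16 (quasi-likelihood) and DESeq2 1.42.0 as alternatives. Other alternatives changed the pseudocount, filter, scaling, variance model, library weights, covariates, replicate block or left out 1 library. The fits were run on simulated counts with independent genes, the same dispersion for each and no shared variation between libraries. That setting differs from these data, so it does not give power or error rates here.

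Full values are given for the genes with the highest and lowest FPKM and the 2 smallest p in each role. Other genes named for their slopes or shares were named after their values were seen. The members and gene lists were chosen with earlier results of these data known. In 15 members exon bases are shared with another annotated gene, above 10 percent in Syp, Syt4, Syn3 and Erc1. Names of 25 genes that had become dates in a spreadsheet were restored from the gene ID.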

Additional observations from a re-analysis of the deposited data

Results flagged for a closer look

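Groups of 6 libraries were screened for a single library far from the other 5 (Dixon's ratio of gap to range above 0.625), over the counts of the members and their family shares. Of 96 groups looked at, 2 stood out (2.08 percent), which is fewer than the about 1 in 20 that chance gives. Both were cocaine replicate 3. Cplx1 made up 60.0 percent of Cplx1 and Cplx2 together there, against 53.7 to 55.9 percent in the other cocaine libraries. Rims1 made up 52.6 percent of the 3 listed Rims genes there, against 44.5 to 46.7 percent in the others. The same library had the lowest count of Unc13a, at 4202, and the highest share of mitochondrial reads, 5.43 percent.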

How the results depend on the processing

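No member was called in any of 27 planned settings or with the added component covariate; the smallest adjusted p of a member in any of them was 0.998 (limma), and the unadjusted p of Syt4 without saline replicate 4 was the smallest in the planned ones. The median difference over the members ran from -0.02 to 0.06. DESeq2 called 3 genes of the whole table, none a member, and the component covariate put 1 member at an unadjusted p under 0.05. The number of members higher in cocaine was 15 with library weights and ran from 13 to 30 on leaving out 1 library. Replicate numbers did not pair the libraries: deviations of same-numbered libraries correlated from -0.40 to 0.43, and a library matched its own number best in 2 of 6. With the replicate number as a block, 0 members were called or at an unadjusted p under 0.05, the median difference was 0.02 and Syt4 differed by 0.16. The lowest count of any member, 68.8 for Syn3, was above what 3 reads give.

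Signs of small differences changed with the setting, and the cause was not tested. With library weights the log2 difference was -0.034 for Dnm1, -0.012 for Rab3a, -0.034 for Rab3b, -0.0099 for Sv2a, -0.0070 for Sv2b, -0.0054 for Syn1, -0.0063 for Synj1, -0.014 for Syp and -0.0019 for Vamp2. Dnm1 was at -0.010 with TMM scaling and at -0.014 with the myelin score. Synj1 was at -0.014 with DESeq2, -0.0087 with edgeR and -0.016 with the myelin score. Leaving out 1 library changed the sign of 24 members, none of them above 0.12 in size in the full data. The log2 difference then ran from -0.18 to 0.067 for Bsn, -0.027 to 0.14 for Cplx1, -0.030 to 0.035 for Dnm1, -0.23 to 0.019 for Erc1, -0.0077 to 0.11 for Erc2, -0.0067 to 0.12 for Nsf, -0.12 to 0.11 for Pclo and -0.055 to 0.062 for Rab3a. It ran from -0.012 to 0.061 for Rab3b, -0.026 to 0.21 for Rab3c, -0.17 to 0.025 for Rims1, -0.20 to 0.016 for Rims3, -0.0092 to 0.058 for Sv2a, -0.057 to 0.21 for Sv2b, -0.0028 to 0.074 for Syn1 and -0.077 to 0.12 for Synj1. For the others it ran from -0.024 to 0.11 for Syp, -0.028 to 0.064 for Syt1, -0.066 to 0.098 for Syt11, -0.020 to 0.084 for Syt5, -0.14 to 0.020 for Syt7, -0.17 to 0.0040 for Unc13a, -0.18 to 0.0064 for Unc13b and -0.035 to 0.11 for Vamp2. For the family shares, in percentage points, it ran from -1.40 to 0.761 for the share of Rab3a, -1.03 to 0.611 for the share of Rims1, -2.72 to 0.912 for the share of Sv2a, -1.56 to 0.415 for the share of Syn1, -0.512 to 0.0205 for the share of Unc13a and -0.0892 to 0.112 for the share of Vamp1.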
